A study of Mus musculus with 3 samples.

Results

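The Hox clusters were examined here as a group of 38 homeobox genes of the mouse, 10 in HoxA, 10 in HoxB, 9 in HoxC and 9 in HoxD. A peak was counted for a Hox gene when the nearest protein-coding transcription start site (TSS) to its midpoint belonged to that gene. By this rule 10 of the 25704 Foxf2-FLAG peaks on named chromosomes fell to Hox genes, and 7 of the 38 genes were nearest to at least 1 peak. The rule uses position alone and no score.

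The peaks come from chromatin immunoprecipitation with sequencing (ChIP-seq) on embryonic mouse tongue. Foxf2 is a forkhead transcription factor, and in these mice its endogenous gene had been edited with CRISPR/Cas9 to carry a 3xFLAG epitope tag. The libraries were 2 anti-FLAG ChIP libraries and 1 input library without antibody, all from Foxf2FLAG/FLAG tongues at E12.5, so the input carried the same tagged allele as the ChIP libraries. The labels speak of 75 dissected tongues without saying how they were divided among libraries, and no untagged tongue was analysed here. The deposited table is a single peak list with 1 score per peak and no value per library. The replicate spread of a peak is therefore unknown, every value below is a description without a test, and the labelled tissue cannot be checked against marker genes in such a list. Sequencing depth is not in the file.

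Hox genes encode homeodomain transcription factors that give cells their position along the head-to-tail axis. They lie in 4 clusters and are numbered by paralog group: low-numbered genes are switched on early and towards the head, high-numbered genes later and towards the tail or the tips of limbs and genitalia. The first pharyngeal arch, which supplies much of the tongue mesenchyme, is known to lack Hox expression, whereas the second and more caudal arches and the occipital somites, the source of tongue muscle, express low-numbered Hox genes. HoxA and HoxD are flanked by gene-poor regions that hold long-range enhancers, best studied in limbs.

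Forkhead proteins bind DNA through a short A-rich core, searched here on both strands as ATAAACA, its close form ATAAATA, the stricter GTAAACA and its form GTAAATA. The following whole peaks are shown because they are the highest-scored Hox peak, the HoxC peak within the Hotair transcript, the HoxD peak with the most core matches and the only Hox peak without a core. All are 213 bases of the mm10 plus strand, 5′ to 3′. Capitals mark forkhead core matches (read as their reverse complement where the match is on the minus strand), except in the Hoxd12 peak, where they mark a match to the core of the motif of CTCF, a factor that organises chromatin loops.
Hoxb1 downstream peak, chr11:96397165-96397377: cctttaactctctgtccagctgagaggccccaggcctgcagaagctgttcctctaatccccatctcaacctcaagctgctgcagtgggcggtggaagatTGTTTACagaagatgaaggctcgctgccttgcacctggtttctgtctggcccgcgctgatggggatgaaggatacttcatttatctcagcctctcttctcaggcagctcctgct
Hoxc11 and Hotair peak, chr15:102947473-102947685: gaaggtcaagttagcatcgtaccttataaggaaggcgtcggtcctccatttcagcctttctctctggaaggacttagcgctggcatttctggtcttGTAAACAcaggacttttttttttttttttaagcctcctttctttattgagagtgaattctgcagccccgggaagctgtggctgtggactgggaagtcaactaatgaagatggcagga
Hoxd3 intron peak, chr2:74715548-74715760: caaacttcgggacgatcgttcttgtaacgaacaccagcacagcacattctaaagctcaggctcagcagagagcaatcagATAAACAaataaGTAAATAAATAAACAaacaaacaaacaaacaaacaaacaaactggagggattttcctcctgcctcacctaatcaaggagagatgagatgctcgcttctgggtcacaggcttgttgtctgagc
Hoxd12 upstream peak, chr2:74673024-74673236: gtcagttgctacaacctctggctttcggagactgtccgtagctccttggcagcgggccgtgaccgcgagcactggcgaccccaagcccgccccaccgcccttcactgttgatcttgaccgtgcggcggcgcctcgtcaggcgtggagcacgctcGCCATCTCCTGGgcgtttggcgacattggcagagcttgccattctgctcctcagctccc

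The remaining peaks are shown by the core match nearest to each peak centre with 10 bases on either side, written on the strand that reads as the core, so that the flanking letters can be compared. The last of them lies inside the HoxA cluster but is nearest to a gene off the list.
Hoxb3 intron, minus strand, core at chr11:96333663-96333669: caggcagataGTAAACAcagcttctct
Hoxb1 second peak, plus strand, core at chr11:96397997-96398003: atcccgagagGTAAATActctcattac
Hoxb1 most distal peak, plus strand, core at chr11:96407772-96407778: ctcagcctaaATAAACAcagaatccgc
Hoxd8 upstream, plus strand, core at chr2:74702520-74702526: tttaacaaaaATAAACAacgtgaacta
Hoxd3 and Haglr, plus strand, core at chr2:74749761-74749767: ttcataaattATAAACAagccgccttg
Hoxa3 intron, plus strand, core at chr6:52211762-52211768: ttcggtcgcaATAAATAatccgcctgc
5730596B20Rik, plus strand, core at chr6:52177114-52177120: ccccaaagctGTAAACAgagcacaaaa

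Peaks were spread unevenly over the clusters. HoxB and HoxD genes were nearest to 4 peaks each, and HoxA and HoxC genes to 1 each. The genes with a peak were Hoxa3, Hoxb1, Hoxb3, Hoxc11, Hoxd3, Hoxd8 and Hoxd12, or 18.4% of the 38 (exact 95% interval 7.74% to 34.3%, which covers counting of genes only), beside 37.3% of all 21938 protein-coding genes. Hoxb1 had 3 peaks, Hoxd3 had 2 and the other members of that set 1 each. Hox genes averaged 0.263 peaks per gene, against 1.17 over all genes, and the median was 0 in both sets.

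Hox genes lie close together, which leaves each one little DNA to which it is nearest. The stretch nearer to a gene's own TSS than to any other coding TSS, called its territory here, had a median of 11.1 kb for Hox genes and 47.0 kb for all genes. It ran from 2.31 kb for Hoxa3 to 107 kb for Hoxc13. Of the 38 genes, 29 had a territory in the 3 lowest deciles of all genes, at most 26.2 kb, and 4 of those 29 had a peak, beside 11.8% of the 6582 genes of that size class. Of the 9 Hox genes with larger territories, 3 had a peak. Those were 2 of 3 in decile 4, where 21.1% of all genes had one, and 1 of 1 in decile 6, beside 34.4%. In decile 5 it was 0 of 2, beside 25.3%, in decile 7 it was 0 of 2, beside 45.2%, and in decile 8 it was 0 of 1, beside 57.1%. Per Mb of summed territory there were 13.1 peaks for the Hox genes, over 763 kb, against 10.3 for all autosomal genes. The same density was 31.3 per Mb for HoxD, 15.9 for HoxB, 9.09 for HoxA and 3.64 for HoxC.

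**Figure D1:**
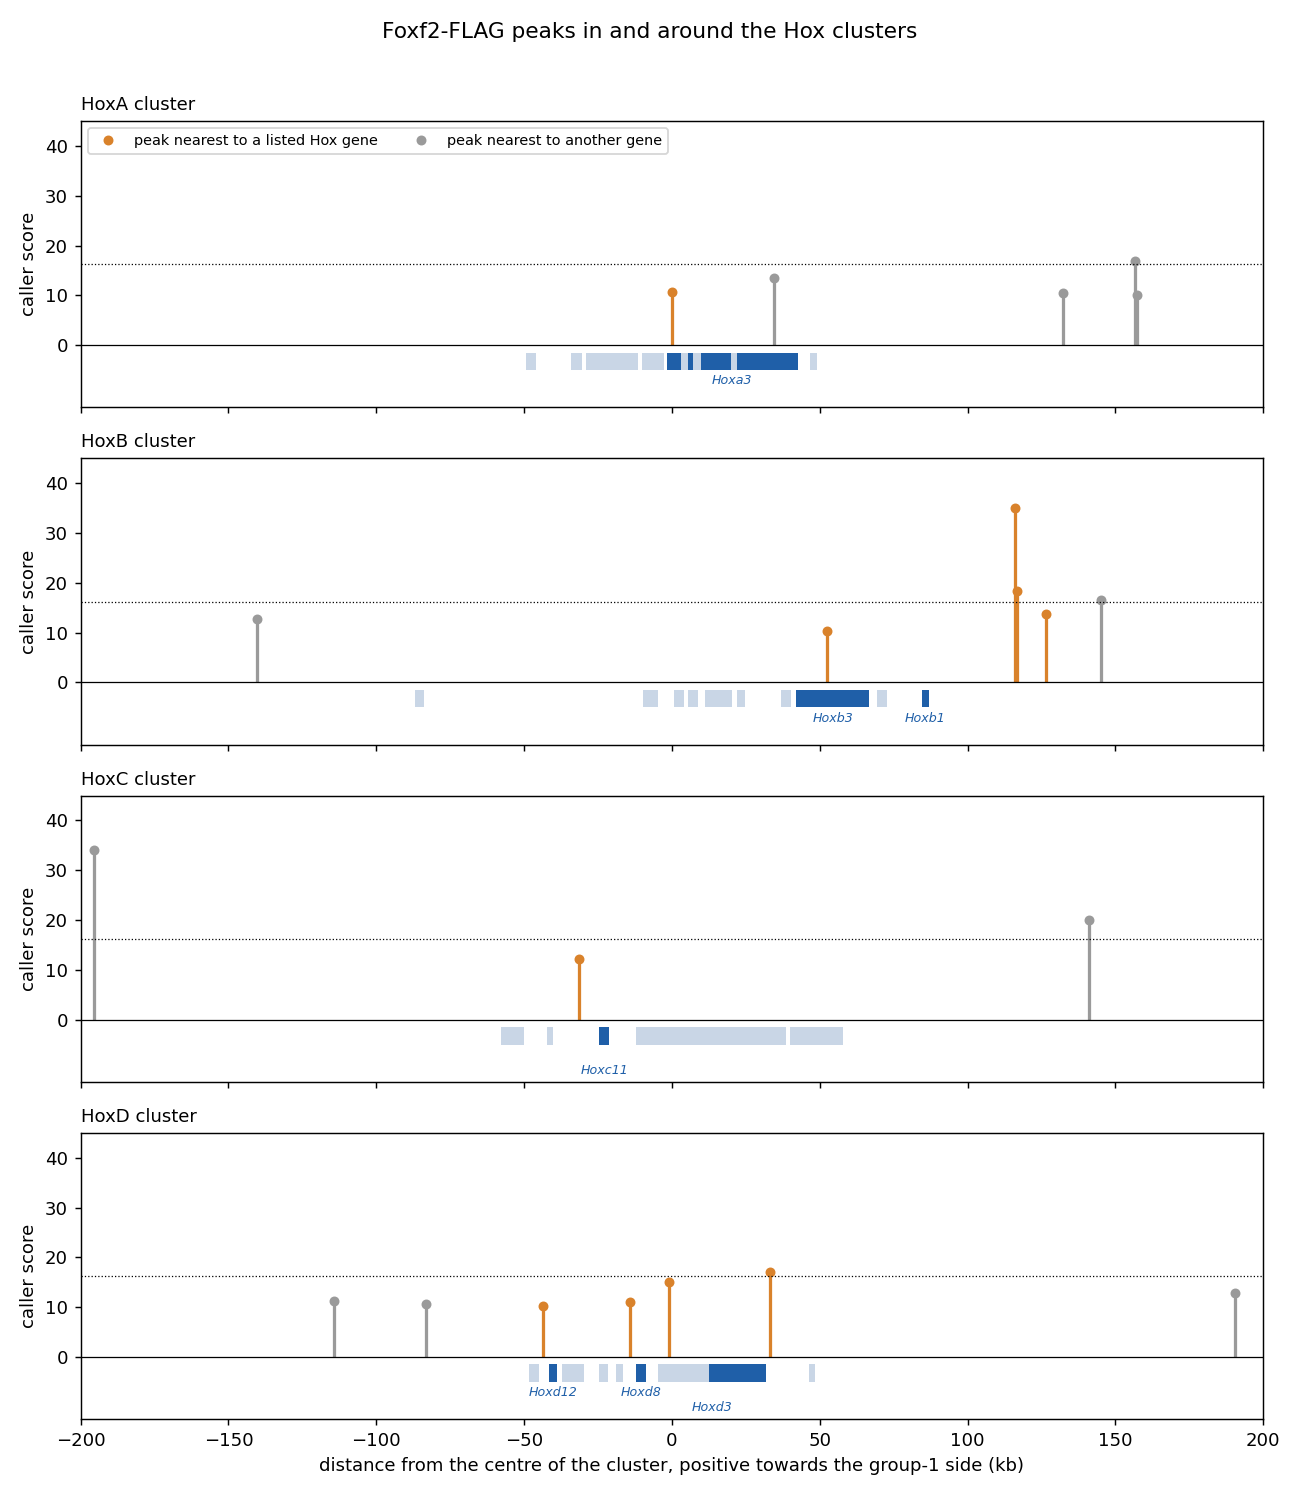
Caller score of each peak (vertical axis) against its distance in kb from the centre of each cluster, with the low-numbered genes to the right; orange lollipops are peaks nearest to a listed Hox gene, grey ones peaks nearest to another gene, and the dotted line is the median score of the whole list, 16.2. Boxes are the listed genes, dark where a peak is assigned to them and light otherwise, with overlapping genes drawn over each other. Inside the boxes' extent 1 peak reaches the dotted line, the 17.0 peak at the Hoxd3 side of HoxD, while a peak of 35.1 stands beyond Hoxb1.

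Within HoxA (chr6:52162417-52260880), the only assigned peak lay near the middle of the cluster, between the gene bodies of Hoxa6 and Hoxa7 and within a long Hoxa3 transcript. It was centred 1.34 kb (1342 bp) downstream of a TSS of Hoxa3, a gene needed for the thymus, parathyroid and other derivatives of the third arch, in an intron of Hoxa3 and of the antisense transcript Hoxaas3. The caller score was 10.7, higher than 7.86% of all peaks, and its sequence was 70.0% G and C, the highest of the Hox peaks. A second peak, scored 13.4, also lay in an intron of Hoxa3 and of Hoxaas3, at chr6:52177008-52177220. It was centred 384 bp upstream of 5730596B20Rik, a coding gene outside the list, and so was not counted for Hox. Both peaks also lay in an intron of Gm28308, another coding record outside the list. Hoxa2, which sets the identity of the second arch, had no peak, and its closest lay 12.3 kb from its TSS.

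The other HoxA genes had none either. Hoxa4, Hoxa5 and Hoxa6 sat between the pair of in-cluster peaks, with their nearest peaks 14.6, 7.19 and 3.05 kb away. Hoxa7, Hoxa9, Hoxa10, Hoxa11 and Hoxa13 sat in a stretch of 296 kb without a peak, with nearest-peak distances of 5.68, 14.4, 23.2, 34.0 and 49.0 kb, growing along the cluster. Gaps between neighbouring peaks at least that long made up 6.61% of autosomal gaps, whose median was 39.1 kb. This is a share of gaps and not of DNA. Long gaps cover more bases, so a gene lies in one more often than the share of gaps gives. Hoxa11 and Hoxa13 are known for patterning of the limb and of the genital and urinary tracts.

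In HoxB (chr11:96194316-96368256) the stronger peaks stood outside the row of genes. A group of 3 peaks lay 29.0 to 39.5 kb beyond its end on the Hoxb1 side, in intergenic DNA 31.5, 32.2 and 42.0 kb downstream of the TSS of Hoxb1, a gene that specifies hindbrain segment identity and facial nerve neurons. Their scores were 35.1, 18.4 and 13.8. The first was the highest of all Hox peaks and above 87.7% of the list, at rank 3144, and the second was above 59.2%. The first pair had 55.0% and 38.5% G and C, and the second peak held 2 core matches, GTAAATA at its centre and GTAAACA 59 bp away.

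Inside the HoxB cluster the single peak fell in an intron of Hoxb3, 10.1 kb upstream of the nearest Hoxb3 TSS. It scored 10.3, above 2.48% of all peaks, and held GTAAACA 4 bp from its centre, as did the top Hoxb1 peak. Hoxb2 had no peak, with the nearest 18.0 kb away. Hoxb4, Hoxb5, Hoxb6, Hoxb7, Hoxb8, Hoxb9 and the distant Hoxb13, a gene of the tail bud and prostate, shared a peak-free stretch of 193 kb. That length was reached by 11.9% of autosomal gaps, again a share of gaps and not of DNA. Their nearest peaks lay 15.4 kb from Hoxb4, 30.2 kb from Hoxb5, 34.5 kb from Hoxb6, 47.0 kb from Hoxb7, 50.9 kb from Hoxb8, 62.1 kb from Hoxb9 and 53.4 kb from Hoxb13. The peak that ends this stretch scored 12.7 and belonged to Ttll6, a tubulin-modifying enzyme gene.

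HoxC (chr15:102921103-103036852) had 1 peak in its whole length, with a score of 12.2 above 23.2% of the list and the highest focus ratio of the Hox peaks, 0.857. The focus ratio is the caller's fraction for how tightly reads gather about a peak's centre. The peak was 6.85 kb upstream of Hoxc11 and lay in an exon of Hotair, a long noncoding RNA transcribed against the Hoxc genes, 151 bp downstream of the Hotair start. Its GTAAACA match was 7 bp from the centre. A short noncoding record, Gm27443, starts 83 bp from the peak centre, and this start alone places the peak in a promoter by the definition used below.

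The other 8 HoxC genes lacked a peak. The nearest peak was 10.8 kb from Hoxc12 and 26.5 kb from Hoxc13, a gene needed for hair. On the other side, the distance grew from gene to gene, from Hoxc10 at 19.2 kb through Hoxc9 at 29.5 kb, Hoxc8 at 43.0 kb, Hoxc6 at 62.0 kb and Hoxc5 at 66.2 kb to Hoxc4 at 71.4 kb, the longest of any Hox gene. Both sides of the Hotair peak formed peak-free stretches of 164 and 172 kb. Those lengths were reached by 14.5% and 13.7% of autosomal gaps, which are shares of gaps and not of DNA.

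HoxD (chr2:74668310-74765142) was the cluster with the most peaks inside it, 4 in 96.8 kb. The strongest, with a score of 17.0 above 53.5% of the list, lay in an exon of the long noncoding RNA Haglr. It was 727 bp downstream of an annotated start inside the Haglr gene and 10.2 kb downstream of a TSS of Hoxd3. The outermost Haglr start, on the minus strand, lay farther off, at chr2:74762896 next to Hoxd1. A second peak of Hoxd3, a group-3 gene with a role in the upper cervical vertebrae, scored 15.1. The peak lay 3.73 kb downstream of a TSS, in an intron of Hoxd3 and of its antisense transcript Hoxd3os1, 342 bp from an annotated start inside Hoxd3os1. It is the sequence shown above with 4 core matches, which stand in a run of AAAC-type repeats, and 43.2% of its bases are annotated repeats. The part of the repeats in this peak was not tested.

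The remaining HoxD peaks were weak and intergenic. The Hoxd8 peak, 2.08 kb (2085 bp) upstream of this trunk-expressed gene, scored 11.0, had the lowest G and C share of the Hox peaks at 31.0%, and held 2 cores, the nearer of them 7 bp from the centre. The Hoxd12 peak, 1.88 kb (1883 bp) upstream of this limb and genital gene, scored 10.3 and had 65.5% G and C. It held no forkhead core and was the only Hox peak with the CTCF core match, which 2.82% of all peaks and 1.23% of windows 2000 bp away from all peaks also held.

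With 1 TSS a gene instead of all annotated ones, the Hoxd3 peaks fell to Hoxd4 and Hoxd1, 1 each, and Hoxd3 had none. HoxD genes without a peak were still close to one. Nearest-peak distances were 13.2 kb for Hoxd1, 6.32 kb for Hoxd4, 4.80 kb for Hoxd9, 10.6 kb for Hoxd10, 9.19 kb for Hoxd11 and 4.82 kb for Hoxd13, the gene of the digits. The longest peak-free stretch touching the HoxD genes was 157 kb and held Hoxd1, and those between the other genes ran from 13.1 to 39.7 kb. Just beyond the Hoxd13 end, 34.9 kb outside the cluster, a peak of score 10.7 was nearest to Evx2, a homeobox gene next to Hoxd13.

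**Figure D2:**
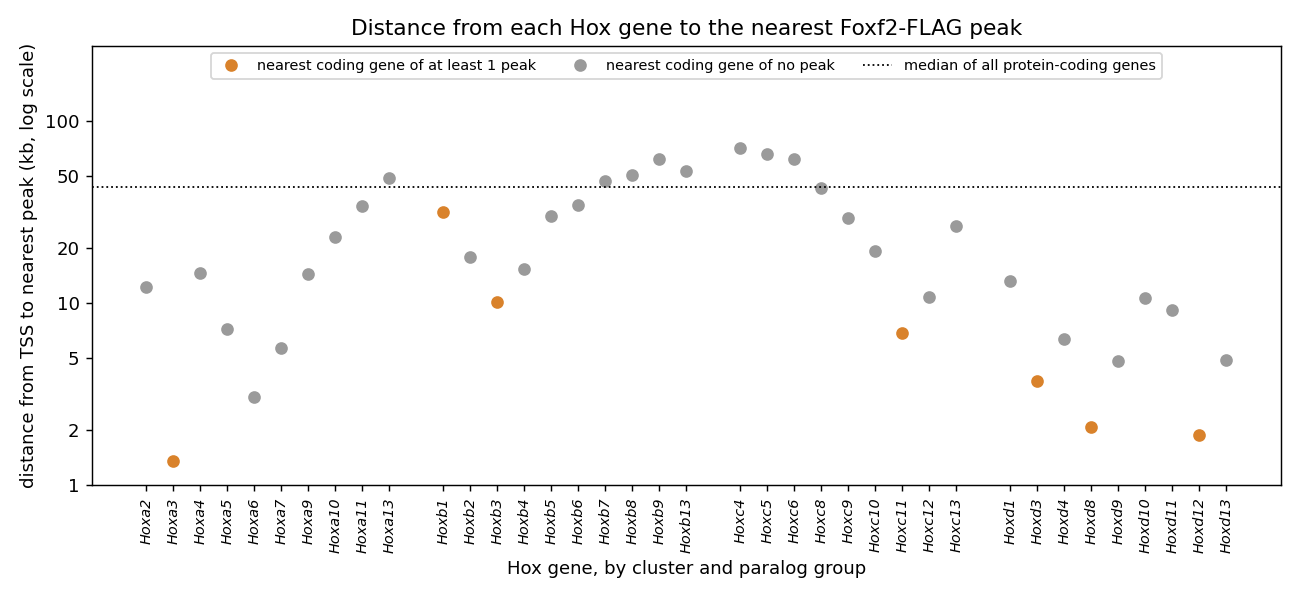
Distance in kb (log scale) from each listed gene to its nearest peak, with genes ordered by cluster and paralog group; orange points are genes to which at least 1 peak is assigned, grey points the others, and the dotted line is the median of all protein-coding genes, 43.3 kb. HoxD genes sit between 1.88 and 13.2 kb, while several genes of HoxB and of HoxC, and in HoxA only Hoxa13, lie above 40 kb.

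Across the 38 genes the nearest peak lay at a median of 15.0 kb, against 43.3 kb over all protein-coding genes (quartiles 12.1 and 116 kb). By cluster the medians were 4.82 kb for HoxD, 13.3 kb for HoxA, 29.5 kb for HoxC and 33.0 kb for HoxB. Of the 38 genes, 30 were nearer to a peak than the median gene, 12 were within 10 kb of one and 6 were beyond 50 kb. Neighbouring genes share the same peak, so these distances are not independent of each other.

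By paralog group, most of the peaks were assigned to low-numbered genes. The 7 genes of groups 1 to 3 had 7 of the 10 peaks, over 177 kb of territory, and 4 of the 7 had at least 1, beside 37.3% of all protein-coding genes whatever their territory. The 15 genes of groups 4 to 8 had 1 peak over 209 kb, that of Hoxd8. The 16 genes of groups 9 to 13 had 2 over 377 kb, those of Hoxc11 and Hoxd12. Nearest-peak medians were 12.3 kb in groups 1 to 3, 30.2 kb in groups 4 to 8 and 16.8 kb in groups 9 to 13. The 3 Hoxb1 peaks lie outside the cluster, in DNA that counts as Hoxb1's only because it is the outermost gene. The Hoxa3 peak lay between the gene bodies of Hoxa6 and Hoxa7 and counted for group 3 through the Hoxa3 TSS. With 1 TSS a gene, 1 Hoxd3 peak fell to Hoxd4, of group 4, and 1 to Hoxd1. The split by paralog group thus depends in part on which starts are annotated.

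The Hox peaks were of low to middling score. Their median was 13, with a range of 10.3 to 35.1, against 16.2 over the whole list, with a range of 10.1 to 243.9. Of the 10 peaks, 3 were at or above the list median, 5 were in its bottom quartile (scores up to 12.3) and 0 were in its top decile (scores from 38.6). The 8 peaks inside the clusters had a median of 11.6, and only that at Haglr reached the list median. Focus ratios had a median of 0.772 (0.706 to 0.857) for Hox peaks and 0.783 over all peaks. Every peak in the list has the same width, so width says nothing.

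In place, the Hox peaks were near genes. Any annotated TSS, coding or not, defined a promoter reaching 1000 bp upstream and 100 bp downstream. By that measure 1 of 10 Hox peaks, the Hotair one, lay in a promoter, beside 8.52% of all peaks. With a window of 2500 bp upstream and 500 bp downstream the Hox share was 40% of the 10. No share over all peaks stands beside this wider window, since the 8.52% belongs to the narrower one. In promoters of coding genes there were 0 of 10, which allows a share of up to 30%, beside 1614 of all 25704 peaks. That share of the list is small too, so 0 of 10 does not set the Hox peaks apart. Within 10 kb of the TSS there were 5 of 10 Hox peaks, against 20.9% of all peaks, and within 50 kb all 10, against 49.4%. The median distance was 8.47 kb, against 51.3 kb over all peaks, and the crowding of coding starts in the clusters limits how far away a peak can be. Of the 10, 4 were upstream and 6 downstream of their gene's TSS. Median G and C was 51.0% in Hox peaks and 43.5% in all peaks, and median repeat content was 7.75% and 10.3%.

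Some of these peaks stood at starts of long noncoding transcripts, a feature looked at after the values had been seen. Within 1 kb of a long noncoding RNA start lay 3 of 10 Hox peaks (30%, exact 95% interval 6.67% to 65.2%), those at Hotair, Hoxd3os1 and Haglr, against 2.81% of all peaks. At Hoxd3os1 and Haglr the start was an annotated one inside the gene and not its outermost start. The clusters are also dense in long noncoding RNA starts, with 45.4 per Mb against 4.61 per Mb over the autosomes. The part of that density in the overlap was not tested.

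Forkhead cores were present in 9 of 10 Hox peaks (90%, exact 95% interval 55.5% to 99.7%) within the central 200 bp, against 72.5% of all peaks. In windows of the same size 2000 bp to either side, 1 of 20 windows at Hox peaks held one (5%), against 18.3% of such windows over all peaks. The stricter GTAAACA occurred in 4 of 10 Hox peaks (40%, 12.2% to 73.8%) and 27.4% of all peaks. In 9 of the 11 peaks in and beside the clusters a core lay within 8 bp of the centre, and the match at Haglr lay 15 bp away.

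Motifs linked to Hox proteins and their partners were searched in the same central windows on both strands. TGATNNAT, a joint site of Hox and Pbx proteins, occurred in 2 of 10 Hox peaks, at Hoxb3 and the most distal Hoxb1 peak, and in 8.91% of all peaks. TGACAG, bound by Meis and Pknox proteins, and TAATTA, a general homeodomain site, occurred in that same Hoxb1 peak only, against 17.9% and 6.07% of all peaks. TTTATNG, a site of the high-numbered Hox proteins, occurred in 4 of 10 (40%, 12.2% to 73.8%), at Hoxa3, Hoxb3, Hoxc11 and Haglr, against 15.1% of all peaks and 11.6% of the windows 2000 bp away. Its TTTAT is the reverse complement of the ATAAA that opens the cores ATAAACA and ATAAATA, so 1 stretch of DNA can count for both. Of the E-boxes, CAGCTG occurred in the top Hoxb1 peak only, against 18.7% of all peaks, and CATCTG in 0 of 10, which allows up to 30%, against 28.0%.

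**Figure D3:**
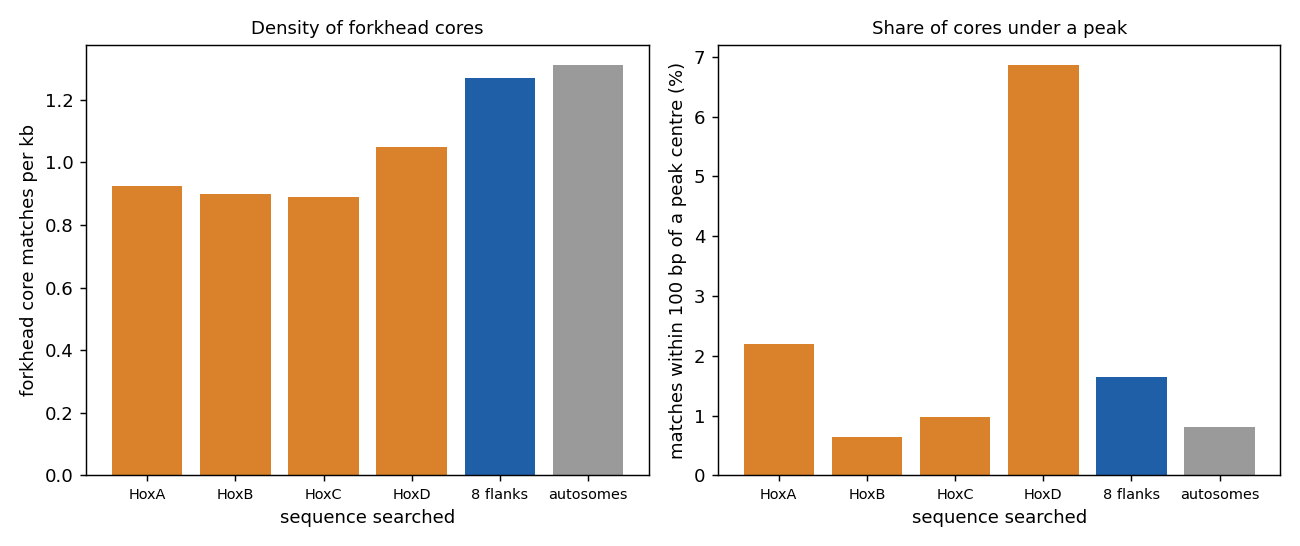
Forkhead core matches per kb (left) and the percentage of those matches within 100 bp of a peak centre (right) for the 4 cluster spans (orange), the 8 flanks of 1 Mb (blue) and the autosomes (grey). Each cluster has fewer cores per kb than the autosomes, 0.890 to 1.05 against 1.31, while the share under a peak ranges from 0.641% in HoxB to 6.86% in HoxD, against 0.811%.

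The clusters were poor in forkhead cores. The 4 spans together held 452 matches, or 0.932 per kb, against 1.27 per kb in the 8 flanks and 1.31 per kb over the autosomes. They also had more G and C (49.3%, against 44.2% in the flanks and 41.9% over autosomes), more CpG (24.3 per kb, against 11.1 and 8.51) and fewer annotated repeats (18.2%, against 29.1% and 33.5%). Of the 452 matches, 11 (2.43%) were within 100 bp of a peak centre, against 1.65% in the flanks and 0.811% over the autosomes. HoxD supplied 7 of those 11, and 4 of the 7 are matches of the single repeat-rich Hoxd3 peak, 3 of which overlap. For GTAAACA alone, 3 of 61 were under a peak in the spans (4.92%), 48 of 1164 in the flanks (4.12%) and 7481 of 376653 over the autosomes (1.99%).

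Counted by length, the clusters as a whole were not far from the genome. The 4 spans, 485 kb in all, held 8 peaks or 16.5 per Mb, which is 1.56 times the autosomal density of 10.6 per Mb. HoxD had 41.3 per Mb, HoxA 20.3, HoxC 8.64 and HoxB 5.75. Among autosomal tiles of the same length, 6.61% held at least as many peaks as HoxD, 26.6% as HoxA, 55.2% as HoxC and 65.7% as HoxB.

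Forkhead cores also occurred in promoters of Hox genes that had no peak. RefSeq promoters (GRCm38.p6, 250 bases before to 50 after the start) were found for 22 of the 38 genes, 24 promoters in all. A forkhead core occurred in 7 of them (29.2%), against 15.0% of the 32851 promoters in the table. These belonged to Hoxa2, Hoxa10, Hoxb8, Hoxd1, Hoxd4 and Hoxd11, and none of these genes was nearest to a peak, although with 1 TSS a gene Hoxd1 and Hoxd4 were each nearest to 1. Of all 38 Hox genes 31 had no peak, so the absence at these genes does not set them apart.

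**Figure D4:**
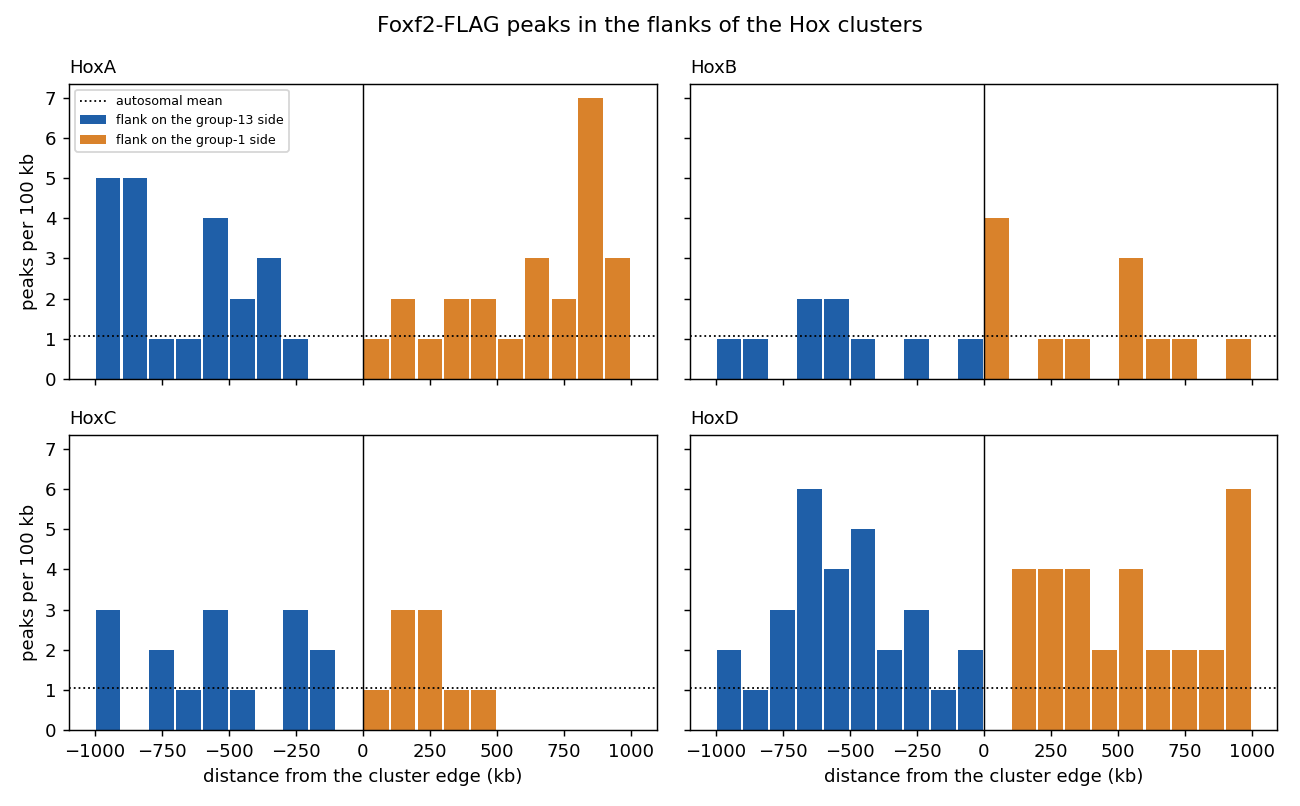
Number of peaks per 100 kb in the 1 Mb on each side of the 4 clusters, by distance in kb from the cluster edge; blue bars are on the side of the group-13 gene, orange bars on the side of the group-1 gene, and the dotted line is the autosomal mean. Both sides of HoxD and of HoxA carry 22 to 30 peaks per Mb, while the sides of HoxB and HoxC carry 9 to 15, and part of the group-1 side of HoxC is an assembly gap.

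Peaks were dense on both sides of HoxD and HoxA. In the flanking 1 Mb, HoxD had 30 peaks on the Hoxd1 side and 29 on the Hoxd13 side, 2.84 and 2.74 times the autosomal density. Counts of at least 29 were found in 2.90% of 1 Mb autosomal tiles, whose median was 9. HoxA had 24 peaks on its low-numbered side and 22 on the Hoxa13 side, 2.27 and 2.08 times the density, and at least 22 were found in 10.6% of tiles. HoxB had 12 on the Hoxb1 side and 9 on the Hoxb13 side, and HoxC 9 on the Hoxc4 side and 15 on the Hoxc13 side, 0.851 to 1.42 times the density. The flanks were chosen as neighbours of Hox genes and not for their peaks, though the earlier whole-list results were known.

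The gene content of these flanks differed in the same direction. The HoxD flanks hold 3 and 5 protein-coding genes and those of HoxA 6 and 4, against 16 to 33 in the flanks of HoxB and HoxC. None of the 105 peaks beside HoxA and HoxD was assigned to a Hox gene, since other coding genes lay nearer. Their median distance to the nearest coding TSS was 117 kb, 54 of them were farther than 100 kb, and 5 (4.76%) were in promoters. For the 45 peaks beside HoxB and HoxC the median was 10.8 kb, 2 were farther than 100 kb and 9 (20%) were in promoters. The median over all peaks was 51.3 kb.

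On the Hoxd13 side of HoxD, the side of the digit and genital enhancers, 16 peaks were nearest to Atp5g3, an ATP synthase subunit gene, 8 to Lnpk, an endoplasmic reticulum gene that borders the cluster, 3 to Chn1, and 1 each to Atf2 and Evx2. The highest-scored of them, 66.4 at chr2:74152952-74153164, lay 515 kb from the cluster and 242 kb upstream of Atp5g3 and held no core. On the Hoxd1 side, known for enhancers of the forearm and other tissues, 14 peaks were nearest to Mtx2, a mitochondrial import gene, 10 to Hnrnpa3, an RNA-binding protein gene, and 6 to Nfe2l2, the gene of the oxidative stress factor Nrf2. The top one there, 48.3 at chr2:75525549-75525761, lay 761 kb from the cluster and held 3 cores. Its middle core is shown because it is the GTAAACA form with A-rich flanks.
Hnrnpa3-side peak, plus strand, core at chr2:75525627-75525633: ataaacaaatGTAAACAtaggagagag

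On the Hoxa13 side of HoxA the first peak stood 247 kb out, and the counts per 100 kb from there outwards were 1, 3, 2, 4, 1, 1, 5 and 5. Jazf1, a zinc finger gene, was nearest to 8 peaks, Hibadh and Tax1bp1 to 5 each and Creb5 to 4. The Jazf1 group included the highest score of any flank, 83.1 at chr6:53164668-53164880, 904 kb from the cluster and 96.1 kb upstream of Jazf1, and all 8 held a core. The lower-numbered side had 11 peaks nearest to Nfe2l3, 5 each to Skap2 and Snx10, 2 to Cbx3 and 1 to Hnrnpa2b1, with a top score of 33.7. The Jazf1 peak is shown by both of its cores, since it is the strongest peak within 1 Mb of a Hox cluster.
Jazf1-side peak, plus strand, core at chr6:53164749-53164755: accgggatctATAAACActgcctccgc
Jazf1-side peak, minus strand, core at chr6:53164799-53164805: cctccgttttGTAAACAgtcctgaaga

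The flanks of HoxB and HoxC are gene-rich and their peaks were spread over many genes. Beside Hoxb1, Copz2 had 3 peaks, Skap1 had 2, and Mrpl45, Snx11, Sp2 and Tbkbp1 had 1 each, in addition to the 3 of Hoxb1. Beyond Hoxb13, Ngfr and Phb had 2 each and Igf2bp1, Slc35b1, Tac4, Ttll6 and Zfp652 had 1 each. The Ngfr peak of score 65.2 lay in a coding exon of this neurotrophin receptor gene, 622 kb from the cluster. Beyond Hoxc13, Atp5g2 had 3, with a top score of 42.5, Calcoco1, Krt8 and Sp7 had 2 each and Igfbp6, Krt78, Pcbp2, Rarg, Sp1 and Zfp740 had 1 each. Beyond Hoxc4, Gpr84 had 3, Cbx5 and Smug1 had 2 each and Itga5 and Pde1b had 1 each.

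**Figure D5:**
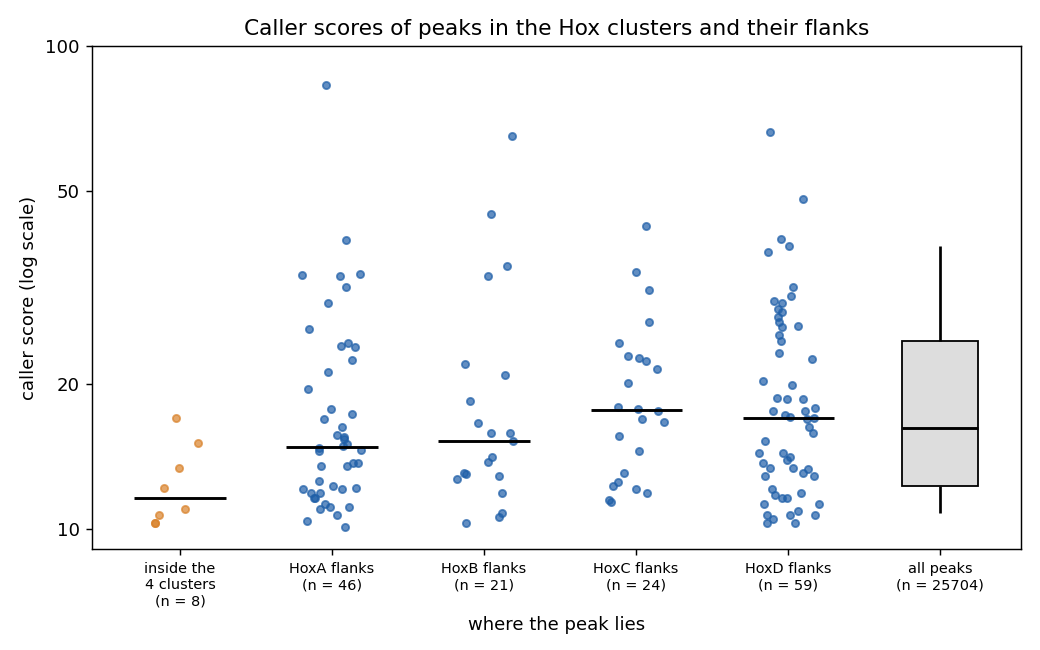
Caller score (log scale) of each peak inside the clusters (orange), in the 1 Mb flanks of each cluster (blue) and, as a box, of all peaks; black bars are medians, the box spans the middle 50% and its whiskers the 10th and 90th percentiles. Peaks inside the clusters run from 10.3 to 17.0, below a good part of the flanking peaks, which reach 83.1.

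Flank peaks resembled the list more than the in-cluster peaks did in score. The 150 flank peaks had a median of 15.8, with 73 (48.7%) at or above the list median and 9 (6%) in its top decile, which holds 10.1% of all peaks. A core occurred in 116 of them (77.3%, exact 95% interval 69.8% to 83.8%), against 72.5% of all peaks. The 8 in-cluster peaks had a core in 7 (87.5%, 47.3% to 99.7%), a median of 11.6 and none in the top decile.

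Several genes that work with or upstream of Hox proteins carried more peaks than any single Hox gene, but all had larger territories. The largest Hox territory was 107 kb. Among the TALE homeobox genes, which encode DNA-binding partners of Hox proteins, Meis1 had 26 peaks, with a top score of 73.1, Meis2 had 14, Pknox2 had 8, Pbx3 had 3 and Pknox1 had 1, while Meis3, Pbx2 and Pbx4 had none. Among genes of retinoic acid signalling and other known upstream regulators of Hox genes, the receptor gene Rarb had 20, Cyp26b1, whose enzyme breaks retinoic acid down, had 16, and Aldh1a2, whose enzyme makes it, had 3. Rara had 2, and Cdx2, Cyp26a1 and Rarg had 1 each, while Cdx1, Cdx4, Cyp26c1, Egr2 and Gdf11 had none. The top scores at Cyp26b1, Aldh1a2 and Rarb were 113.2, 109.4 and 105.2. Territories were 649 kb for Meis2, 648 kb for Rarb, 528 kb for Cyp26b1 and 214 kb for Pknox2. Per Mb of territory they had 21.6, 30.9, 30.3 and 37.3 peaks, and Meis1 had 26.4. The same density was 13.1 for the Hox genes together, 31.3 for HoxD genes and 10.3 for all autosomal genes. Hoxb1 had 3 peaks in 56.5 kb and Hoxd3 had 2 in 27.9 kb, denser than in these genes, while 31 Hox genes had none. The part of territory in these counts was not tested.

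Of 18 Polycomb and trithorax genes, which keep Hox genes silent or active, 16 had at least 1 peak, and the median was 1. Jarid2 had 15 over a territory of 609 kb, Phc2 had 3, and Cbx2, Cbx7, Eed, Ezh1 and Phc1 had 2 each. Bmi1, Cbx8, Ezh2, Kmt2a, Kmt2d, Rnf2, Suz12 and Wdr5 had 1 each, and Men1 and Ring1 had none. The median over all protein-coding genes, whatever their territory, was 0 peaks, and 37.3% of them had at least 1. The part of territory in this difference was not tested.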

How the data were processed

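Foxf2-FLAG ChIP-seq peaks of E12.5 mouse tongue were taken from the 1 deposited list of a series with 2 ChIP libraries and 1 input library; per the series design text, input was the control for peak calling. The submitters' processing notes name Bowtie2 2.4.1, SAMtools 1.7.1, HOMER and mm10, and the series design text gives Bowtie2 as aligner and HOMER as peak caller. No source used here states the caller parameters, each library's depth or whether ChIP libraries were pooled. The deposited peak score is the authors' own, has no stated scale and was used only to rank and describe peaks. The focus ratio is a fraction from 0 to 1, as deposited by the authors. Of 25707 deposited peaks, 3 on unplaced contigs were left out.

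Peaks were assigned by midpoint to the nearest protein-coding TSS of GENCODE basic release 21 on mm10. A territory holds the bases nearer to a gene's own TSS than to any other. Cluster spans run over the outermost ends of the listed genes, flanks are 1 Mb on each side, and densities are per Mb of sequenced bases. Motif searches covered both strands of the central 200 bp. Intervals are exact (Clopper-Pearson, 95%) and cover counting of peaks only; the limit beside a count of 0 is 3 counts. The sequences come from the mm10 genome, and promoters from RefSeq (GRCm38.p6). The matching and assignment steps were tested on simulated data with Python 3.11.15, numpy 2.4.6, pandas 2.3.3 and scipy 1.17.1.

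The text names all 38 Hox genes, the genes nearest to flank peaks and genes of the cofactor, regulator and chromatin lists, some members of which are not reported here. Members and lists were chosen with earlier results of these data known. The alternatives tried were a score threshold, distance limits, other TSS sets, other motif and promoter windows, and other flank sizes.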

Additional observations from a re-analysis of the deposited data

How the results depend on the processing

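With peaks scored at or above the list median only, 2 Hox genes had a peak (Hoxb1 and Hoxd3), against 7 as reported. The Hox peaks then numbered 3, the in-cluster peaks 1 and the flank peaks 73, 100% of the 3 Hox peaks held a core and 0% lay in promoters. With the nearest TSS of any gene type, 2 genes (Hoxa3 and Hoxd12) had 2 peaks, 50% of them with a core and 0% in promoters, since most in-cluster peaks lay nearer to noncoding starts. Peaks within 10 kb of the TSS numbered 5. GTAAACA alone gave a core share of 40%. Flanks of 500 kb held 65 peaks and flanks of 100 kb held 9, by construction fewer than the 150 within 1 Mb. Distance limits of 10 and 50 kb left 5 and 7 genes with a peak, and 1 TSS a gene gave 8, of which 6 were shared with the 7: Hoxd3 lost both peaks, and Hoxd1 and Hoxd4 gained 1 each. A promoter of 2500 bp upstream and 500 bp downstream held 40% of Hox peaks, with no share over all peaks to set beside it. The median score ran from 10.5 to 18.4 over the alternatives. No paired analysis was possible because the list has no value per library, and leaving out a library could not be done for the same reason. Depth is unknown, so a missing peak does not show that Foxf2 was absent.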
